A study of Mus musculus with 6 samples.

Results

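The Wnt pathway and crypt stem cell genes described here are 50 of the 23420 genes in an RNA-sequencing table of sorted ileal tuft cells. They were chosen by gene symbol: all Wnt ligands, Frizzled receptors, Dishevelled genes and Tcf7 genes, the receptors Lgr4, Lgr5 and Lgr6, and Lrp5, Lrp6, Ctnnb1, Apc, Axin1, Axin2, Rnf43, Znrf3, Lef1, Ascl2, Olfm4 and Smoc2. Tuft cells are sparse cells of the gut lining with a bundle of apical microvilli, which sense signals from the lumen. The 6 libraries form 1 group, numbered as mouse replicates 1 to 6, and all came from Gfi1b-eGFP/+ mice of the C57BL/6J strain. Their Gfi1b locus, which is active in tuft cells among epithelial cells, carries a green fluorescent protein reporter in the heterozygous state, and cells positive for GFP and EpCam and negative for CD45 and propidium iodide were sorted from the ileum. No treatment or infection is named for these libraries, and neither age nor sex is given for them. The study used mice between 6 and 12 wk of age throughout. There are no libraries of other epithelial cells in the table, so the comparisons are between genes within a library and none shows enrichment in tuft cells.

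In Wnt signaling, a secreted Wnt protein binds a Frizzled receptor and an LRP5 or LRP6 co-receptor at the cell surface, Dishevelled is recruited, and the complex of APC, AXIN and kinases that destroys β-catenin is switched off. β-catenin then enters the nucleus and activates genes together with TCF and LEF factors. At the base of the intestinal crypt this signal maintains stem cells, and R-spondins amplify it by binding LGR receptors and removing the ubiquitin ligases RNF43 and ZNRF3, which otherwise clear Frizzled from the membrane.

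The ileal tuft cell libraries held at least 1 gene of each receiving step of the pathway in every library and little of its ligands. Levels are given in TPM (transcripts per 1000000), a unit that corrects for transcript length and scales every library to a total of 1000000. Among the 50 genes, 23 (46.0%) were listed above 0 TPM in every library, beside 47.2% of all genes in the table. There were 11 (22.0%) at 0 in every library, beside 32.9% of all genes, and 13 (26.0%) with a mean of at least 10 TPM, beside 29.8% of all genes. The share at 0 throughout was thus lower among the members than in the table, a difference that was not tested, and the other shares lay near those of all genes. All 3 crypt stem cell genes, both co-receptors, both ubiquitin ligases, all 3 Dishevelled genes and all 4 genes of β-catenin and its destruction complex were above 0 in every library. So were 2 of 3 R-spondin receptors and 2 of 4 TCF and LEF genes, but only 2 of 19 Wnt ligands and 3 of 10 Frizzled receptors. The number of reads behind a TPM value is not recoverable, so depth is unknown, values carry no counting error, and a gene at 0 is only listed at 0, which may differ from absence. The sample labels name a 3' preparation beside the full-length one described in the methods, and if libraries were made by the former, the length correction would distort every comparison of levels between genes.

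**Figure D1:**
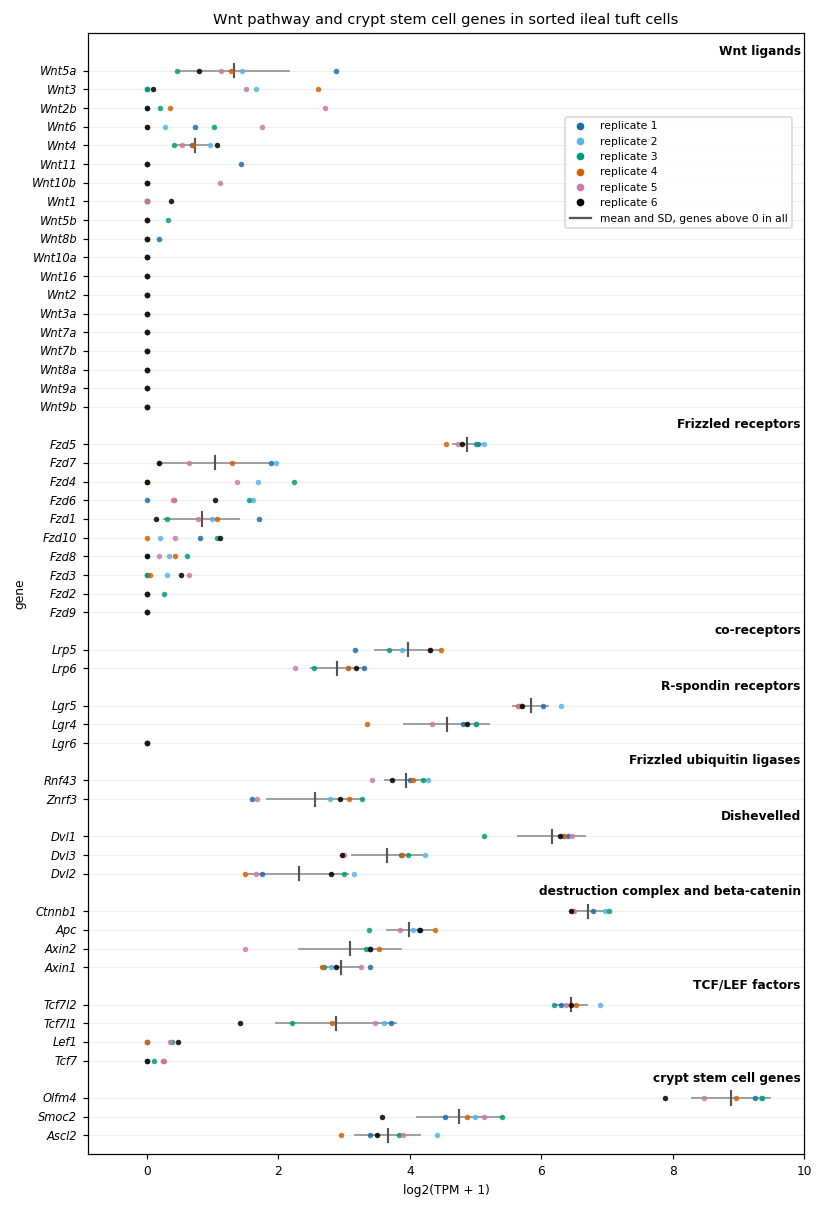
Each point is the level of 1 gene in 1 library, as log2(TPM + 1), for all 50 genes grouped by role and colored by replicate. Ticks and lines give the mean and SD over 6 libraries for the 23 genes above 0 in every library. Olfm4 lies farthest to the right, and no point of a Wnt ligand reaches 3 on this axis.

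The libraries were first checked against their label and for transcripts of other cells. Of 14 tuft cell markers, 13 are in the table and all 13 were above 0 in every library, with summed levels of 12022, 10826, 7136, 8639, 7167 and 7176 TPM in replicates 1 to 6. All 8 Paneth cell markers were above 0 in every library as well. Over all genes this share was 47.2%, to be read beside the count of each marker list, and no difference was tested. Paneth cells sit between the crypt stem cells, and the summed level of their markers was 7570, 4099, 4478, 27140, 16445 and 8786 TPM, most of it from Defa24 and other α-defensin genes. The values of these near-identical genes are uncertain, because reads that fit several of them are divided by estimate.

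Markers of goblet cells summed to 1155, 1053, 2495, 2324, 2986 and 5118 TPM, with 7 of 7 genes above 0 in every library and Zg16 leading. Enterocyte markers summed to 14822, 11181, 5855, 9487, 6501 and 7601 TPM, with 8 of 8 above 0 and Fabp1 leading. Fabp1 made up most of each sum (12794 TPM in replicate 1), whereas Alpi, Apoa1, Fabp2, Sis, Slc5a1 and Lct were each highest in replicate 4. Enteroendocrine markers were lower, at 379 to 536 TPM, and came mostly from Sct, the secretin gene, with 3 of 9 genes above 0 in every library. The sum was highest in replicate 2, and single genes differed in order, with Chga, Chgb and Tph1 highest in replicate 5 (40.4, 59.6 and 11.03 TPM), Gcg, Nts, Cck and Neurod1 highest in replicate 3 (45.7, 6.15, 7.54 and 2.52 TPM) and Pyy at 0 in replicates 1 and 5. The share of each gene's transcripts that came from tuft cells or from other epithelial cells was not measured, and in these bulk libraries fewer cells of a type cannot be told apart from less RNA per cell.

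Wnt ligands were low or listed at 0 in all libraries. There were 9 of 19 at 0 in every library (47.4%, beside 32.9% of all genes, not tested). They were Wnt2, Wnt3a, Wnt7a, Wnt7b, Wnt8a, Wnt9a, Wnt9b, Wnt10a and Wnt16. No ligand had a mean of 2 TPM or more as deposited, though Wnt5a and Wnt3 reached 2.79 and 2.24 TPM after rescaling without Rn45s and Gm20594, and Wnt5a 2.01 to 2.28 TPM when 1 of replicates 2 to 6 was left out. The 19 genes together summed to 9.43, 5.05, 2.12, 7.39, 12.5 and 2.19 TPM in replicates 1 to 6. The level of Wnt5a, a ligand best known for signaling without β-catenin, was 6.35, 1.73, 0.37, 1.42, 1.18 and 0.73 TPM. It was above 0 in all libraries but high only in replicate 1, and its mean was 1.96 TPM with replicate 1 and 1.09 TPM without it. The other ligand above 0 in every library was Wnt4, at 0.33 to 1.1 TPM.

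Wnt3, the ligand that Paneth cells are known to supply to neighboring stem cells, was listed at 0, 2.16, 0, 5.07, 1.83 and 0.07 TPM. It was highest in replicate 4, which also had the highest sum of Paneth cell markers, but next highest in replicate 2, where that sum was lowest, and near 0 in replicate 6, where that sum was higher than in replicates 1, 2 and 3. Without replicate 4 its mean was 0.812 TPM in place of 1.52 TPM. None of the 8 Paneth cell markers was at 0 in any library, and the part of Paneth cell RNA in the level of Wnt3 was not tested. Wnt2b was at 0, 0, 0.15, 0.27, 5.52 and 0 TPM, so that replicate 5 held nearly all of it. Replicate 5 also stood out for mesenchymal markers, which summed to 64.3 TPM there and 0.75 to 6.03 TPM elsewhere. Most of that sum was Dcn, a matrix proteoglycan gene, at 59.4 TPM in replicate 5 and 0 in the others, and Col1a1 (1.51 TPM), Col3a1 (1.01 TPM) and Pdgfra (0.03 TPM) were likewise above 0 in replicate 5 only. Col1a2 and Lum were at 0 in all libraries, and Pdgfrb was above 0 in all. The gate on EpCam should remove mesenchymal cells, and the part of their RNA in the level of Wnt2b was not tested. Wnt6 ranged from 0 to 2.38 TPM, and Wnt1, Wnt5b, Wnt8b, Wnt10b and Wnt11 were each above 0 in 1 library, at 1.69 TPM or less.

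Further genes that amplify, hold back or release Wnt ligands were taken from lists. Of the 4 R-spondin genes, Rspo2, Rspo3 and Rspo4 were at 0 in every library and Rspo1 ranged from 0 to 2.77 TPM. Of 12 secreted inhibitors of Wnt or Frizzled, 7 were at 0 in every library (Dkk4, Sfrp1, Sfrp2, Sfrp4, Wif1, Frzb and Sost) and none was above 0 in all. The highest, Sfrp5, reached 1.69 TPM, followed by Dkk3 at up to 0.38 TPM in replicate 5 alone and Dkk1 at up to 0.26 TPM. At the membrane, Kremen1 and Kremen2, receptors for the DKK inhibitors, were above 0 in all libraries at 0.09 to 6.65 and 1.06 to 5.94 TPM, and Apcdd1 was at 0 throughout.

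Of 4 genes for the export of Wnt proteins, 3 were above 0 in every library, beside 47.2% of all genes. Wls, the carrier that brings Wnt proteins to the cell surface, was at 14.2, 13.3, 66.4, 20.5, 16.7 and 14.7 TPM, with replicate 3 far above the others. The transport genes Tmed2 and Vps35, which serve many cargoes, had 228.8 ± 48.9 and 54.5 ± 20.7 TPM (SD, n = 6 each). Porcn, which attaches the lipid that Wnt proteins need for release, ranged from 0 to 3.32 TPM.

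Of the 10 Frizzled receptors, Fzd5 stood alone at a middle level. Fzd5 (ENSMUSG00000045005.9; chromosome 1 of GRCm38, 64730558 to 64737751, minus strand) is the receptor whose loss is known to impair Paneth cell maturation. Its level was 31.8, 33.9, 31.2, 22.4, 25.6 and 26.6 TPM in the 6 libraries, averaging 28.6 ± 4.41 TPM (SD, n = 6). Relative to its mean, Fzd5 had the narrowest spread of all members with a mean of at least 5 TPM (coefficient of variation 15.4%). It made up 84.0% of the summed mean level of the 10 receptors. Fzd7, described as a receptor of crypt stem cells, was at 2.71, 2.90, 0.14, 1.45, 0.56 and 0.14 TPM. Its highest value lay well below the lowest value of Fzd5, as did those of all other Frizzled genes. Fzd1 was also above 0 in every library (0.10 to 2.27 TPM), Fzd4, Fzd6, Fzd10, Fzd8, Fzd3 and Fzd2 were at 0 in at least 1 library and never above 3.70 TPM, and Fzd9 was at 0 in all.

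Both co-receptors were present, with Lrp5 higher in most libraries. Lrp5 had 7.93, 13.8, 11.9, 21.2, 18.9 and 18.7 TPM, and Lrp6 had 8.87, 7.32, 4.82, 7.31, 3.78 and 8.06 TPM. Lrp6 exceeded Lrp5 in replicate 1 only, so the ranges of the co-receptors overlap. On the log2(TPM + 1) scale Lrp6 was lower than Lrp5 by a mean of 1.07, a difference of -1.07 ± 0.73 (SD, n = 6), which did not pass the threshold (two-sided exact sign-flip test, p = 0.0625, or 0.0729 adjusted over 7 pairs of genes). The adjusted p was 0.0101 by an exact Mann-Whitney test, which does not pair the genes within a library. Lrp5 was lowest in replicates 1, 2 and 3, an order also found after either rescaling between libraries.

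Receptors and kinases of the branch without β-catenin were low. Of 10 genes, 5 were above 0 in every library, near the 47.2% of all genes. None had a mean of 10 TPM, beside 29.8% of all genes with at least that mean, a difference that was not tested. Vangl1 (8.22 ± 2.83 TPM) and Celsr1 (7.24 ± 2.20 TPM; SD, n = 6 each), which act in planar cell polarity, led the list, followed by Ryk, a Wnt-binding receptor, at 0.89 to 10.9 TPM.

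Among the R-spondin receptors, Lgr5 was more abundant than Lgr4, and Lgr6 was at 0 in all 6 libraries. Lgr5 (ENSMUSG00000020140.15; chromosome 10 of GRCm38, 115450311 to 115587780, minus strand) is the standard marker of cycling crypt stem cells. Its level was 64.5, 77.4, 50.8, 49.2, 49.7 and 51.0 TPM, a mean of 57.1 ± 11.5 TPM (SD, n = 6). Replicates 1 and 2 were highest and the other 4 libraries, at 49.2 to 51.0 TPM as deposited, were close to one another. Ranked among the genes above 0 in its library, Lgr5 stood between percentiles 82.8 and 88.8. Lgr4 (ENSMUSG00000050199.13; chromosome 2, 109917647 to 110014257, plus strand), a receptor expressed more widely along the crypt, had 27.0, 31.1, 31.1, 9.15, 19.1 and 28.2 TPM and was lowest in replicate 4. The ranges did not overlap, and Lgr5 had 1.63 to 5.38 times the TPM of Lgr4 in the same library. Lgr4 minus Lgr5 was -1.28 ± 0.57 on the log2(TPM + 1) scale (SD, n = 6), with Lgr5 higher in 6 of 6 libraries (exact sign-flip test, p = 0.03125, the smallest that 6 libraries allow, or 0.04375 adjusted).

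The ubiquitin ligases that R-spondins counteract were both present, and Rnf43 was the higher. Rnf43 had 14.96, 18.4, 17.4, 15.6, 9.70 and 12.2 TPM and Znrf3 had 2.04, 5.87, 8.65, 7.39, 2.18 and 6.68 TPM. The lowest value of Rnf43 exceeded the highest of Znrf3. The difference was 1.39 ± 0.61 on the log2(TPM + 1) scale (SD, n = 6; 6 of 6 libraries; exact sign-flip test, p = 0.03125, or 0.04375 adjusted). Znrf3 was lowest in replicates 1 and 5, where the ratio of Rnf43 to Znrf3 was also greatest, at up to 7.33.

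Of the Dishevelled genes, which relay the signal from Frizzled, Dvl1 was far above Dvl3 and Dvl2. Dvl1 had 84.2, 79.7, 33.9, 80.1, 87.7 and 76.9 TPM, so that 5 libraries lay close together, with replicate 3 far below them, and its mean was 73.8 TPM with replicate 3 and 81.7 TPM without it. Dvl3 had 13.6, 17.7, 14.7, 13.7, 7.01 and 6.80 TPM, and no value of it reached the lowest of Dvl1. Dvl2, at 1.80 to 7.84 TPM, shares 1151 exonic bases (18.3% of its exonic length in GENCODE M21) with Acadvl on the opposite strand, a fatty acid oxidation gene with a mean of 68.2 TPM. As the strand setting of the authors' quantification is not given in the sources used here, reads of Dvl2 and Acadvl may not be told apart and the level of Dvl2 is uncertain. For the same reason the levels of Fzd5 and Ctnnb1 carry some doubt. Fzd5 shares 1233 exonic bases (17.8%) with Gm38058, an opposite-strand gene model without a value here, and Ctnnb1 shares 759 (14.6%) with Ulk4, which had a mean of 0.25 TPM. Lef1 shares 1208 (13.7%) with Gm43352, also without a value, and the other members with a mean of at least 5 TPM share 5.17% or less with any gene.

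Ctnnb1, the gene of β-catenin, was by mean level the second most abundant member after Olfm4, though Tcf7l2 was slightly higher in replicates 4 and 6. Ctnnb1 (ENSMUSG00000006932.17; chromosome 9 of GRCm38, 120929216 to 120960507, plus strand) had 109.7, 124.6, 130.2, 88.5, 89.9 and 86.4 TPM, a mean of 104.9 ± 19.4 TPM (SD, n = 6). Replicates 1, 2 and 3 held the highest values, and β-catenin is also a component of cell junctions in every epithelial cell. The same libraries had the smaller shares of the ribosomal RNA precursor Rn45s, which lowers the TPM of all other genes (25.1%, 24.8%, 23.1%, 26.7%, 32.6% and 32.2% of TPM in replicates 1 to 6). The predicted gene Gm20594 also took a smaller share there (2.13%, 2.09%, 1.56%, 5.36%, 5.18% and 5.64%). With both genes removed and each library rescaled, Ctnnb1 was at 150.8, 170.4, 172.7, 130.2, 144.4 and 138.9 TPM, still highest in replicates 1, 2 and 3 but over a narrower range.

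The scaffold genes of the destruction complex were at lower levels than Ctnnb1. Apc, the tumor suppressor whose loss starts many intestinal adenomas, had 16.5, 15.6, 9.41, 19.9, 13.4 and 16.8 TPM. Axin1, the constitutive scaffold, had 9.54, 5.99, 5.44, 5.34, 8.58 and 6.37 TPM. Axin2, which is itself induced by β-catenin and serves as a readout of the pathway, had 9.46, 9.50, 9.10, 10.5, 1.82 and 9.51 TPM (ENSMUSG00000000142.15; chromosome 11 of GRCm38, 108920349 to 108950783, plus strand). Replicates 1, 2, 3, 4 and 6 thus lay between 9.10 and 10.5 TPM while replicate 5 was far lower, and the mean was 8.32 TPM with replicate 5 and 9.62 TPM without it. Replicate 5 also had the highest mesenchymal sum, at 64.3 TPM on a scale of 1000000 TPM per library. The cause of the low Axin2 there was not tested. Axin2 minus Axin1 was 0.14 ± 0.98 on the log2(TPM + 1) scale (SD, n = 6), smaller than its own SD (4 of 6 libraries higher for Axin2; exact sign-flip test, p = 0.8125, or 0.8125 adjusted). Without replicate 5 it was 0.52, and without replicate 4 it was -0.0054.

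The kinases and other regulators of the complex were nearly all detected. Of 9 genes, 8 were above 0 in every library, with Apc2 the exception at 1.25 TPM in replicate 1 only, and 5 had a mean of at least 10 TPM. The shares over all genes were 47.2% and 29.8%, and the differences were not tested. Csnk1a1, the casein kinase that primes β-catenin for destruction, led with 141.1 ± 31.2 TPM. Gsk3b and Gsk3a, the kinases that complete the mark, had 21.1 ± 5.14 and 15.3 ± 6.29 TPM (SD, n = 6 each).

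Tcf7l2 accounted for 92.0% of the summed mean level of the 4 TCF and LEF genes. Tcf7l2 (ENSMUSG00000024985.19; chromosome 19 of GRCm38, 55741820 to 55933654, plus strand) encodes TCF4, the factor that crypt stem cells require. Its level was 77.7, 118.1, 72.2, 91.5, 82.1 and 86.9 TPM, a mean of 88.1 ± 16.2 TPM (SD, n = 6), highest in replicate 2 and otherwise within a narrow range. Tcf7l1, known mainly as a repressor, had 12.1, 11.2, 3.62, 6.07, 10.0 and 1.67 TPM. Relative to its mean it varied most among the members with a mean of at least 5 TPM. Tcf7 was at 0, 0, 0.08, 0.18, 0.19 and 0 TPM and Lef1 at 0, 0, 0.30, 0, 0.28 and 0.39 TPM. Tcf7l2 exceeded Tcf7 in 6 of 6 libraries, by 6.36 ± 0.30 on the log2(TPM + 1) scale (SD, n = 6; exact sign-flip test, p = 0.03125, or 0.04375 adjusted), and the size of this difference is set by the pseudocount, since Tcf7 is near 0.

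Tcf7 and Lef1 are genes of T cells, and transcripts of such cells were present in spite of the CD45 gate. Of 8 T cell markers, 6 were above 0 in every library and none was at 0 in all, beside 47.2% and 32.9% of all genes. They summed to 34.2, 65.2, 40.2, 62.6, 193.2 and 232.1 TPM, mostly from the granzyme gene Gzma, with the highest sums in replicates 5 and 6. Gzma, Gzmb and Cd3g were each highest in replicates 5 and 6, and the other T cell markers did not follow that order. The T cell receptor complex gene Cd3d was at 3.85, 2.21, 1.18, 4.16, 0.98 and 1.18 TPM. Cd3e and Itgae were highest in replicate 6 (11.63 and 16.21 TPM) but at 1.52 and 1.80 TPM in replicate 5. Cd8a was highest in replicate 5 (8.42 TPM) but at 1.03 TPM in replicate 6. Cd247 was at 2.90 TPM in replicate 6 and 0 in replicate 5. The part of T cell RNA in the levels of Tcf7 and Lef1 was not tested. Among B cell markers Ms4a1 was at 0 in all libraries, and their sum of 0 to 38.2 TPM came mostly from the immunoglobulin chain gene Igj. Endothelial markers were at 0 for Cdh5 and Kdr, with 0.28 TPM of Pecam1 in replicate 6.

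Partners of β-catenin at chromatin were mostly present. Of 9 genes, 7 were above 0 in every library (47.2% of all genes) and 5 had a mean of at least 10 TPM (29.8% of all genes). These differences were not tested, and Pygo1 was at 0 in all libraries. The most abundant was Tle5, listed as Aes, with 94.3 ± 22.9 TPM, followed by Tle3 with 20.9 ± 7.91 TPM and Tle4 with 15.3 ± 4.23 TPM (SD, n = 6 each), which belong to the Groucho family of corepressors.

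Known target genes of Wnt signaling in the crypt were led by Sox9. Of 9 genes, 7 were above 0 in every library and 4 had a mean of at least 10 TPM, beside 47.2% and 29.8% of all genes. Sox9, a transcription factor of crypt progenitors that tuft cells are also known to express, had 243.1, 275.6, 175.5, 164.6, 146.4 and 117.3 TPM. It was highest in replicates 1 and 2 and lowest in replicate 6. Ccnd1, the gene of cyclin D1, had 26.0 ± 10.4 TPM and Ephb2, a receptor that positions cells along the crypt, had 19.1 ± 3.58 TPM (SD, n = 6 each). Tnfrsf19 and Sp5, also targets in stem cells, were at 0 in some libraries and at most 5.25 and 0.73 TPM. In replicate 5, where Axin2 was lowest, target genes differed in direction. Nkd1 was highest there (3.44, 3.46, 5.99, 5.07, 8.18 and 6.66 TPM in replicates 1 to 6), and Ephb3 was lowest there, at 0.81 TPM.

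All 3 further crypt stem cell genes among the members were above 0 in every library, and their levels differed widely. Olfm4 (ENSMUSG00000022026.7; chromosome 14 of GRCm38, 79984081 to 80023139, plus strand), a secreted glycoprotein that is among the most abundant stem cell transcripts of the small intestine, had 608.8, 650.1, 658.6, 500.1, 355.9 and 235.0 TPM. Its mean of 501.4 ± 173 TPM (SD, n = 6) went with a rank between percentiles 96.9 and 98.6 among genes above 0. Replicates 1, 2 and 3 were close together, and replicates 5 and 6 were lowest, also after rescaling without Rn45s and Gm20594. Replicates 5 and 6 also had the highest sums of goblet cell markers (2986 and 5118 TPM) and T cell markers (193.2 and 232.1 TPM). Replicates 3 and 4, with 658.6 and 500.1 TPM of Olfm4, had goblet cell sums of 2495 and 2324 TPM, not far below replicate 5. The part of such cells in the level of Olfm4 was not tested. Smoc2, a matrix protein gene of stem cells, had 22.3, 30.8, 41.2, 28.4, 34.1 and 10.9 TPM, higher in replicates 3 and 5 than elsewhere and lowest in replicate 6. Ascl2 (ENSMUSG00000009248.6; chromosome 7, 142966829 to 142969264, minus strand), the transcription factor that sets the stem cell program, had 9.53, 20.3, 13.2, 6.71, 13.8 and 10.3 TPM, a mean of 12.3 ± 4.68 TPM (SD, n = 6).

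The stem cell genes kept the same order in all 6 libraries, with Olfm4 above Lgr5 and Lgr5 above Ascl2. Olfm4 had 4.61 to 13.0 times the TPM of Lgr5, a difference of 3.04 ± 0.51 on the log2(TPM + 1) scale (SD, n = 6; 6 of 6 libraries; exact sign-flip test, p = 0.03125, or 0.04375 adjusted). Lgr5 had 3.6 to 7.33 times the TPM of Ascl2. Ascl2 minus Lgr5 was -2.18 ± 0.41 (SD, n = 6; Lgr5 higher in 6 of 6 libraries; exact sign-flip test, p = 0.03125, or 0.04375 adjusted). The ratio of Olfm4 to Lgr5 was lowest in replicate 6 and highest in replicate 3. In all, 5 of the 7 pairs compared passed an adjusted p of 0.05, each with the same gene higher in every library. The pairs were not chosen independently of these data, and the adjusted p depends on how many listed pairs keep the same order in every library. The p-values thus describe how steady the order was over the libraries and are no independent evidence for it.

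**Figure D2:**
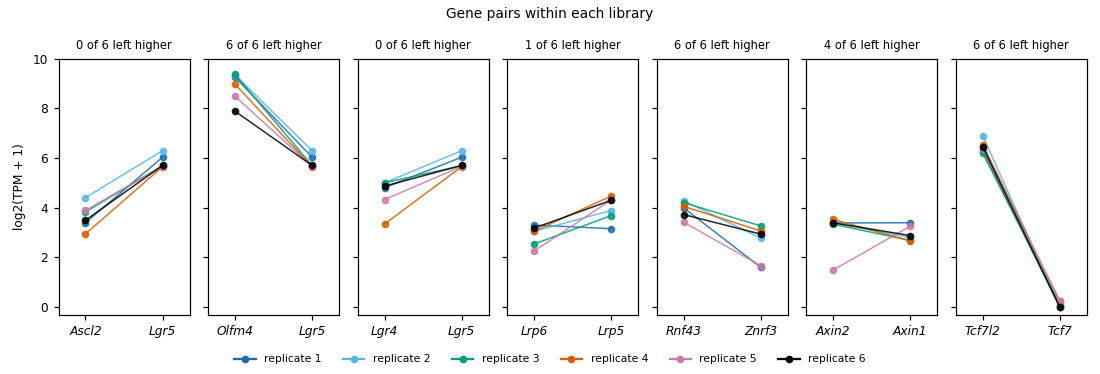
Each panel plots a pair of genes as log2(TPM + 1), with a line joining the values of the same library and the count of libraries in which the gene on the left was higher. Lines of 5 pairs slope the same way in 6 of 6 libraries, those of Lrp6 and Lrp5 in 5 of 6, and those of Axin2 and Axin1 are divided 4 to 2.

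Beyond the members, a list of 11 other genes used to mark crypt stem cells gave a mixed result. Of these, 9 were above 0 in every library and 6 had a mean of at least 10 TPM, beside 47.2% and 29.8% of all genes. Prom1, a membrane protein gene of stem and progenitor cells, led with 146.2 ± 25.1 TPM, followed by Hopx, a marker of reserve stem cells, with 50.1 ± 15.5 TPM (SD, n = 6 each). Cdca7, a gene of dividing stem cells, had 23.5, 37.4, 61.2, 20.4, 18.7 and 20.2 TPM and was highest in replicate 3. Gkn3, which is particular to stem cells in the mouse small intestine, was at 0 in replicates 1, 4, 5 and 6, at 1.78 TPM in replicate 2 and at 3.56 TPM in replicate 3. Tert was at 5.00 TPM in replicate 1, 0.07 TPM in replicate 6 and 0 elsewhere.

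Transcripts of dividing cells were also present. All 9 proliferation genes were above 0 in every library, beside 47.2% of all genes, a difference that was not tested. Their sum was 178.1, 270.4, 540.4, 184.8, 300.5 and 296.3 TPM, with Pcna the most abundant. Replicate 3 had the highest sum together with the highest Olfm4 and Smoc2 as deposited. Replicates 5 and 6, which came next in the sum, had the lowest Olfm4 (355.9 and 235.0 TPM). Among single genes, Mki67 was highest in replicate 5 (27.14 TPM, against 16.86 TPM in replicate 3). Mcm2 was highest in replicate 6 (33.95 TPM, against 25.83 TPM in replicate 3), and the other proliferation genes were highest in replicate 3. Lgr5 and Ascl2 were highest in replicate 2, also after either rescaling. The part of stem or dividing cells in these levels was not tested.

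Members varied between libraries about as much as other genes. The median coefficient of variation was 31.1% over the 18 members with a mean of at least 5 TPM and 34.2% over the 9106 genes of the table at that level. It was lowest for Fzd5 (15.4%), Tcf7l2 (18.4%), Ctnnb1 (18.5%) and Lgr5 (20.2%) and highest for Tcf7l1 (57.7%) and Znrf3 (50.4%). Without depth these spreads cannot be set against counting error.

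Letters of the TCF and LEF site were also searched in the 250 bases before the start of each gene, as RefSeq gives them on GRCm38.p6. The letters were CTTTGAA or CTTTGAT, or else CTTTGTT or CTTTGTA, on both strands, and 35 of 50 members had a window. They were in 2 of these 35 windows (5.71%), those of Fzd7 and Wnt11, and in 14.9% of 27025 windows, 1 per gene. The letters CAGCTG, a site for basic helix-loop-helix factors such as ASCL2, were in 5 of 35 windows (14.3%; Lgr6, Fzd10, Tcf7, Wnt9a and Dvl3) and in 12.8% of all. Windows of Axin2 and Ascl2 held neither, and Lgr5 and Smoc2 had no window in the table used. These matches describe letters near the gene start, and distant elements were not searched.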

How the data were processed

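RNA of sorted ileal tuft cells was amplified by a modified SMART-Seq2 protocol. The sample labels also name 3' polyA and droplet preparations, which the methods do not describe. The authors aligned paired-end reads to mm10 with Bowtie and deposited TPM estimated by RSEM v1.2.3, which divides reads that fit several transcripts. The strand setting is not given in the sources used here. Columns were matched to replicates by number, and 0 of 15 pairs of libraries were identical.

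Differences in log2(TPM + 1) between genes of a library were tested by two-sided exact sign-flip permutation over 64 assignments, with Benjamini-Hochberg adjustment over 7 pairs. The study calls the libraries independent samples and the labels number mouse replicates, without stating whether each is 1 animal or a pool, and p-values measure the spread between these libraries. The members, pairs and lists were chosen with earlier results of these data known. Every library's value was given for members averaging 5 TPM or more, both genes of each pair and the crypt stem cell genes, and the 3 most abundant genes of each pathway list were named. Other genes were named after their values were seen. Some marker genes are not reported here by name. Sh2d6 was not found in the table, and Jchain and Tle5 were found as Igj and Aes through RefSeq synonyms.

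Alternatives were pseudocounts of 0.1 and 0.01, setting values under 0.1 TPM to 0, median-of-ratios rescaling, rescaling without Rn45s and Gm20594, an exact Mann-Whitney test, other detection levels and leaving out each library. Positions come from GENCODE M21 on GRCm38, where 50 of 50 members matched by symbol. The tests and rescaling were tested on simulated data. Software was Python 3.11.15, with numpy 2.4.6 and scipy 1.17.1 for statistics, pandas 2.3.3 for tables and matplotlib 3.10.9 for plots.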

Additional observations from a re-analysis of the deposited data

Results flagged for a closer look

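Dixon's ratio sets the distance from an extreme library to its neighbor against the full range of the 6 libraries, and 17 of 80 measures exceeded its 95% critical value. By chance about 1 in 20, or 4 of 80, would if the values were normally distributed. Many of these TPM values are skewed or at 0, so the chance rate is not known here and 17 is not shown to be an excess. The measures are not independent, and 8 of the 17 are genes or sums above 0 in 1 library only, for which the ratio is 1 by construction. These were Wnt1 at 0.29 TPM in replicate 6, Wnt10b at 1.15 TPM in replicate 5, Wnt11 at 1.69 and Wnt8b at 0.13 TPM in replicate 1, Wnt5b at 0.25 and Fzd2 at 0.19 TPM in replicate 3, Dkk3 at 0.38 TPM in replicate 5, and the endothelial sum of 0.28 TPM in replicate 6.

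Of the rest, 4 were in replicate 5. Axin2 was at 1.82 TPM there and at least 9.10 TPM elsewhere (ratio 0.835), and its mean was 8.32 TPM with replicate 5 and 9.62 TPM without it. The difference of Axin2 from Axin1 was lowest there (ratio 0.667), Wnt2b was highest (5.52 against at most 0.27 TPM, ratio 0.951), and so was the mesenchymal sum (64.3 against at most 6.03 TPM, ratio 0.917). Axin2 stayed apart after median-of-ratios rescaling (ratio 0.724) and without Rn45s and Gm20594 (0.727).

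Another 3 were in replicate 3. Dvl1 was at 33.9 TPM against at least 76.9 TPM elsewhere (ratio 0.80), Wls was at 66.4 against at most 20.5 TPM (0.864) and the sum of proliferation genes at 540.4 against at most 300.5 TPM (0.662). The ratio for Dvl1 was 0.667 without Rn45s and Gm20594 and 0.60, below the critical value, after median-of-ratios rescaling. Wnt5a was highest in replicate 1 (6.35 against at most 1.73 TPM, ratio 0.773) and Rspo1 in replicate 2 (2.77 against at most 1.01 TPM, ratio 0.635). Median-of-ratios rescaling brought Fzd5, lowest in replicate 4, past the critical value, from 0.274 to 0.714. Wnt6, highest in replicate 5, also passed it, from 0.571 to 0.64 by median-of-ratios rescaling and 0.646 without Rn45s and Gm20594.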

How the results depend on the processing

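All 7 differences between genes kept their direction under each pseudocount, filter, rescaling and test tried. Of these, 5 stayed under an adjusted p of 0.05 in each. With the same sign in 6 of 6 libraries, these 5 pairs had the smallest p that the exact sign-flip test allows. Their adjusted p also depends on how many of the 7 listed pairs reach that smallest p. Passing the threshold is therefore partly set by which pairs were listed. Rescaling hardly changes the order within a pair, since it acts alike on both genes. The Mann-Whitney test moved 1 comparison across the threshold, Lrp6 minus Lrp5 (difference -1.07, exact p = 0.00866, adjusted p = 0.0101). With replicate 1 in the opposite direction, the sign-flip p of this pair cannot go under 0.0625, whereas the Mann-Whitney test ignores the pairing within libraries. The adjusted sign-flip p of Lrp6 minus Lrp5 was 0.0729 under every pseudocount, filter and rescaling. Pseudocounts of 0.1 and 0.01 took Tcf7l2 minus Tcf7 from 6.36 to 9.12 and 11.13. With each library left out in turn, differences lay between -2.26 and -2.07 for Ascl2 minus Lgr5, 2.92 and 3.21 for Olfm4 minus Lgr5, -1.40 and -1.07 for Lgr4 minus Lgr5, -1.31 and -0.87 for Lrp6 minus Lrp5, 1.19 and 1.51 for Rnf43 minus Znrf3, -0.0054 and 0.52 for Axin2 minus Axin1, and 6.25 and 6.41 for Tcf7l2 minus Tcf7. Axin2 minus Axin1 fell just below 0 without replicate 4. No test was run on 5 libraries, where p cannot go under 0.0625. The count of members above 0 in every library was 23 or 24 with a library left out, 23 at a level of 0.1 TPM and 19 at 1 TPM. The count with a mean of at least 10 TPM was 13 with each library left out and after median-of-ratios rescaling, and 16 without Rn45s and Gm20594, which raises every value and moved the means of 17 of 39 members beyond 1 SD.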
